A study of Schizosaccharomyces pombe with 4 samples.

Results

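Nuclear genes for translation in mitochondria were described in fission yeast (Schizosaccharomyces pombe). They are the genes whose biological process annotation in the authors' deposited table holds the exact term mitochondrial translation. Of 7092 genes in the table, 105 carried the term, and 102 of these were kept. Members needed the status OK, a nuclear chromosome and at least 1 FPKM as the mean of both groups. FPKM is the number of sequenced fragments per kilobase of transcript, scaled to the fragments mapped in the library. Genes within 100 kb of a chromosome end or with the term rRNA processing were to be left out, but no further gene was lost that way. The genes not kept were cox1102 (mean 0.867 FPKM), new15 (not tested, listed at 0) and var1, the ribosomal protein gene of the mitochondrial chromosome. Just inside the limit lay cox1101, with a mean of 2.40 FPKM. The members lie on chromosomes I (39 genes), II (44 genes) and III (19 genes).

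Sequencing of mRNA covered 4 libraries of h90 cells, a genotype that can switch mating type, with the markers given as ade6leu1 and ura4. In all 4 the gene pcr1 was replaced by ura4+. The 2 libraries of the vector group carried the empty plasmid pREP41, and the 2 of the Atf1 group carried pREP41-Atf1, in which the thiamine-repressible nmt1 promoter drives the insert. Cells were grown at 30 °C in minimal medium with 20 µM thiamine and then for 24 h without it. Atf1 is a bZIP transcription factor of the stress response, and Pcr1 is its usual partner. The labels leave unsaid if a separate culture was grown for each library, so p-values may measure technical spread alone. Since the authors pooled each group into 1 FPKM per gene, the spread between libraries is unknown. The p- and q-values are those of the authors' deposited table, from Cuffdiff, and "called" means q under 0.05 there.

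Mitochondria keep a ribosome of their own, built from RNA of the mitochondrial chromosome and proteins that are almost all encoded in the nucleus and imported. It makes a small set of membrane proteins of the respiratory chain and the ATP synthase. It also needs its own tRNA synthetases, initiation, elongation and release factors, tRNA-modifying enzymes and assembly GTPases.

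Levels of the genes in the genotype went against the labels. The gene atf1 was at 54.4 FPKM in the Atf1-labelled and 60.9 FPKM in the vector-labelled group (q = 0.997 in the authors' deposited table). The gene pcr1 was at 66.4 and 35.8 FPKM, and ura4 was listed at 0 in the Atf1-labelled group against 125 FPKM. Directions given here are therefore between labels and not between known levels of Atf1. All levels below are FPKM, and each difference is the log2(FPKM + 1) under the Atf1 label minus that under the vector label. The added 1 understates the change of low genes.

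No gene for mitochondrial translation was called, but most were lower in the libraries labelled Atf1. The authors' deposited table calls 0 of 102 members, against 1.82% of 6219 tested genes called higher and 0.129% called lower. At an unadjusted Cuffdiff p under 0.05, 9 members were lower (8.82% of them) and 0 higher, against 4.04% lower and 6.80% higher over all tested genes. The median difference was -0.56 over the members, -0.11 over all tested genes and -0.22 over 4971 tested nuclear genes with a protein entry. Of the 102 members, 85 had a difference below 0, against 55.4% of all tested genes. With FPKM totals made equal between the groups, 2 members had a difference above 0 in place of 17, and 23.6% of all tested genes did in place of 44.6%. The median level of the members was 21.8 FPKM under the Atf1 label and 34.3 FPKM under vector. In a bulk culture, less RNA per cell and fewer cells that express a gene cannot be told apart.

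**Figure D1:**
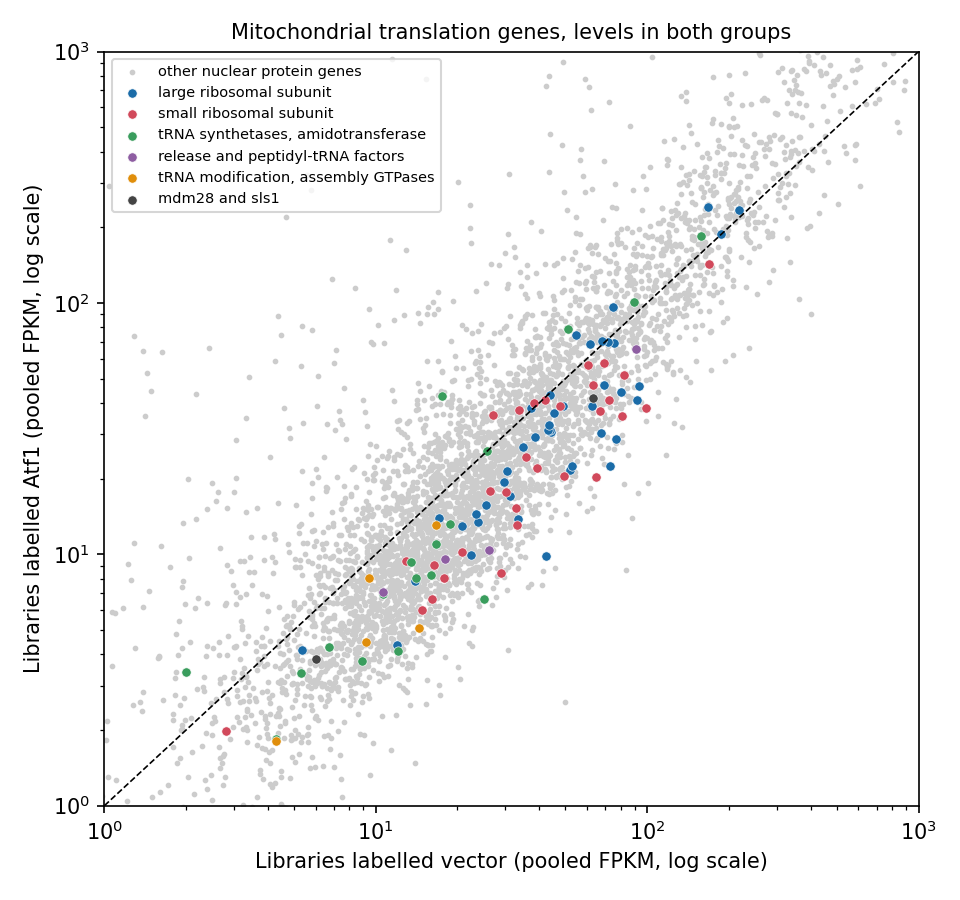
Pooled FPKM of each gene in the libraries labelled vector (x axis) and Atf1 (y axis), both on log scales, with the 102 members coloured by role and other nuclear protein genes in grey. The dashed line marks equal levels, and 85 members lie below it.

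At least 2-fold lower values of FPKM + 1 were found in 25 members and at least 2-fold higher values in 1. Over all tested genes these shares were 13.1% and 15.5%. The differences ran from -1.99 for mrp20 to 1.24 for SPCC576.06c, and the quartiles of the members were -0.97 and -0.27.

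The large subunit of the mitochondrial ribosome holds the peptidyl transferase centre, and 43 members encode its proteins. Their median difference was -0.52, with 35 below 0 and 8 above 0. An unadjusted p under 0.05 was found for 3 (6.98%), all lower, against 4.04% lower and 6.80% higher over all tested genes. The lowest difference was that of mrp20, annotated as protein L23. The gene, SPAC31A2.08, lies within the Cuffdiff locus at chromosome I 402719-405389 in ASM294v2. It was at 9.89 FPKM under the Atf1 label and 42.3 FPKM under vector (p = 0.0656, q = 0.748 in the authors' deposited table). Its value is uncertain, because its Cuffdiff locus holds 2 genes.

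The gene mrpl44, for protein L44, is alone in its locus (SPBC56F2.14, chromosome II 4125818-4126258). It was at 22.5 FPKM under the Atf1 label and 73.0 FPKM under vector, a difference of -1.66. The authors' deposited table gives p = 0.00925, the smallest of all members, and q = 0.301. The genes mrpl28 and mrp49, for proteins L28 and MRP49, share loci of 2 and 3 genes. They were at 28.8 and 76.8 FPKM, and at 4.35 and 12.0 FPKM, Atf1-labelled before vector-labelled. The gene mrpl8, chosen after its values were seen for its p of 0.0435 in the authors' deposited table, was at 46.7 and 93.1 FPKM.

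Among the most abundant large-subunit genes, tam9 and mrpl38 had near-equal levels in both groups. The gene tam9, annotated as protein L36, was at 233 FPKM under the Atf1 label and 219 FPKM under vector. The gene mrpl38 was at 188 and 187 FPKM. Both are alone in their loci, and their differences of 0.09 and 0.01 lay below 0 with quantile normalization or equal FPKM totals. The genes mrpl9 (74.3 and 54.9 FPKM) and mrpl23 (96.1 and 74.8 FPKM) also lay above 0, but below 0 with equal FPKM totals. Both share their locus with other genes.

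Upstream sequences of all 102 members were searched in the RefSeq annotation of ASM294v3, over the 250 bases before each annotated gene start and on both strands. The core of the site that Atf1 and related bZIP proteins bind, TGACGT, was present in 4 members (3.92%), against 5.52% of 5112 protein-coding genes. Since it is the letters that Atf1 is known to read, all 4 sites are shown with 12 bases on each side and the core or its reverse complement in capitals, on the strand of the gene:
mrpl38: atatgccaactaACGTCAaataccaaattc
mrpl9: ttctcatattatTGACGTgacttaaaacgc
mrp15: attagcatacctTGACGTtcgtacactgtg
mrpl1602: cgcaagtttggtTGACGTgccacatggctg
In ASM294v3 they lie at chrII:3551244-3551273 (plus strand), chrI:2703985-2704014, chrII:4363850-4363879 and chrI:334588-334617 (each on the minus strand). Counted from the start of the core, they stand 88, 191, 76 and 41 bases before the gene start. The differences of mrpl38, mrpl9, mrp15 and mrpl1602 were 0.01, 0.43, -1.23 and -0.49. Members with the core thus lay on both sides of 0, although mrpl38 and mrpl9 lay below 0 with equal FPKM totals. The HomolD core CAGTCAC, an element of cytosolic ribosomal protein genes in this yeast, was present in 1 member (0.980%), against 4.52% of all. The sequence ACCCTA, part of the HomolE element, was present in 10 members (9.80%), against 7.02%. A match describes letters in this window and shows no binding.

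The small subunit decodes the messenger RNA, and 30 members encode its proteins. Their median difference was -0.76, with 27 below 0 and 3 above 0. An unadjusted p under 0.05 was found for 5 (16.7%), all lower, against 4.04% lower and 6.80% higher over all tested genes. The difference between the medians of both subunits was not tested. The gene mrp10 is alone in its locus (SPAC24C9.13c, chromosome I 3071584-3072124). It was at 38.0 FPKM under the Atf1 label and 99.4 FPKM under vector (difference -1.36, p = 0.0123 and q = 0.349 in the authors' deposited table). The gene rsm18, for another protein of this subunit, is also alone in its locus (SPCC18B5.04, chromosome III 725979-726792). It was at 35.6 and 80.7 FPKM (difference -1.16, p = 0.0198 in the authors' deposited table).

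The gene next to rsm18 is wee1, for a kinase that inhibits mitosis, which was called higher. It was at 282 FPKM under the Atf1 label and 5.75 FPKM under vector (q = 0.00809 in the authors' deposited table). The gene wee1 is not a member and was picked outside the naming rule, with its values known. A link between wee1 and the value of rsm18 was not tested. The genes mrps28 (8.42 and 29.0 FPKM) and rsm7 (20.3 and 64.7 FPKM) encode proteins S28 and S7. They share loci of 3 and 2 genes and had p = 0.0355 and 0.0239 in the authors' deposited table. The gene mug178, chosen after its values were seen for its p of 0.0349 in that table, was at 6.62 and 16.1 FPKM and is alone in its locus.

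Among small-subunit genes the highest level was that of ymr31, at 143 FPKM under the Atf1 label and 169 FPKM under vector. Its budding yeast namesake is known as a component of the alpha-ketoglutarate dehydrogenase complex. The gene mrps16, for protein S16, had the highest difference of the small subunit, 0.40, at 36.0 and 27.0 FPKM. It turned below 0 with equal FPKM totals, and it lies in a locus of 4 genes. The gene cox1101, at 1.99 and 2.81 FPKM, encodes a tandem protein of Rsm22 and Cox11. It has a near-identical copy, cox1102 (99.9% identity), so its value is uncertain.

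**Figure D2:**
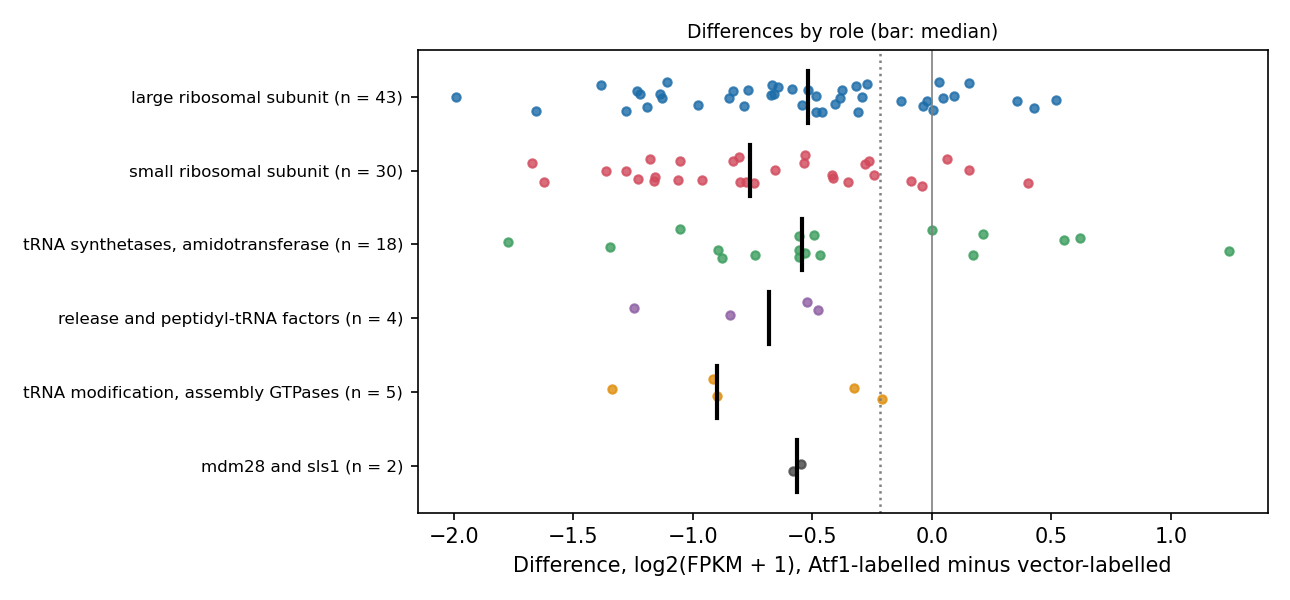
Difference of each member on the log2(FPKM + 1) scale (x axis), Atf1-labelled minus vector-labelled, by role. Each point is a gene, black bars are medians, the solid line marks 0 and the dotted line the median of nuclear protein genes (-0.22). The medians of the 6 roles lie between -0.90 and -0.52.

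Aminoacyl-tRNA synthetases load tRNAs with their amino acids, and the GatFAB amidotransferase converts glutamate on the glutamine tRNA of mitochondria to glutamine. These enzymes make up 18 members. Their median difference was -0.54, with 12 below 0 and 6 above 0, and none had an unadjusted p under 0.05. The synthetase gene msf1 for phenylalanine was at 6.64 FPKM under the Atf1 label and 25.1 FPKM under vector, in a locus of 3 genes. That for threonine, SPAC24C9.09, was at 4.14 and 12.1 FPKM, in a locus it shares with the small-subunit gene mrp4. The amidotransferase genes her2, pet112 and gtf1 had differences of -0.56, -0.49 and -0.53, in loci of 4, 5 and 3 genes. The gene mse1, whose product supplies glutamate on that tRNA, had a difference of -0.74, in a locus of 2 genes. The isoleucine synthetase gene ism1, alone in its locus, was at 6.92 and 10.7 FPKM.

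Of the 8 highest differences among all members, 4 belonged to synthetase genes. The tyrosine synthetase gene SPCC576.06c was at 42.7 FPKM under the Atf1 label and 17.5 FPKM under vector, the highest difference of any member (1.24, p = 0.495 in the authors' deposited table). The lysine gene SPCC18.08 was at 3.39 and 2.00 FPKM, a difference of 0.55 at a low level. The histidine gene hrs1 was at 79.1 and 51.1 FPKM, and the glycine gene grs1 at 184 and 158 FPKM. All of them but grs1 share a locus with other genes. The differences of hrs1 and grs1 lay below 0 with equal FPKM totals, and that of grs1 also with quantile normalization.

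The synthetases and amidotransferase subunits were also split by the term cytoplasmic translation, and by an annotation of cytosol or cytoplasm. Both splits were chosen once the values were known. An annotation of cytoplasm does not by itself place a product outside mitochondria. The genes mrs1 (for arginine), grs1 and hrs1 also carry the term cytoplasmic translation, and in yeasts such genes give rise to enzymes for both compartments. These 3 had differences from 0.17 to 0.62 and a median level of 101 FPKM with the Atf1 label. Their median difference of 0.21 was -0.18 with quantile normalization, where 1 of the 3 lay above 0, and -0.45 with equal FPKM totals, where 0 did. The other 15 had a median difference of -0.56 and a median level of 6.92 FPKM. With the annotation of cytosol or cytoplasm as the criterion, the medians were 0.17 over 9 genes and -0.74 over the 9 without it. The 9 annotated there are not alike: msf1, at -1.77 the lowest of all 18, and ism1, her2 and msw1, each at -0.56, lay below 0. With quantile normalization the first of these medians was -0.29 and with equal totals -0.48, so its sign depends on the scaling. The difference between these sets was not tested.

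**Figure D3:**
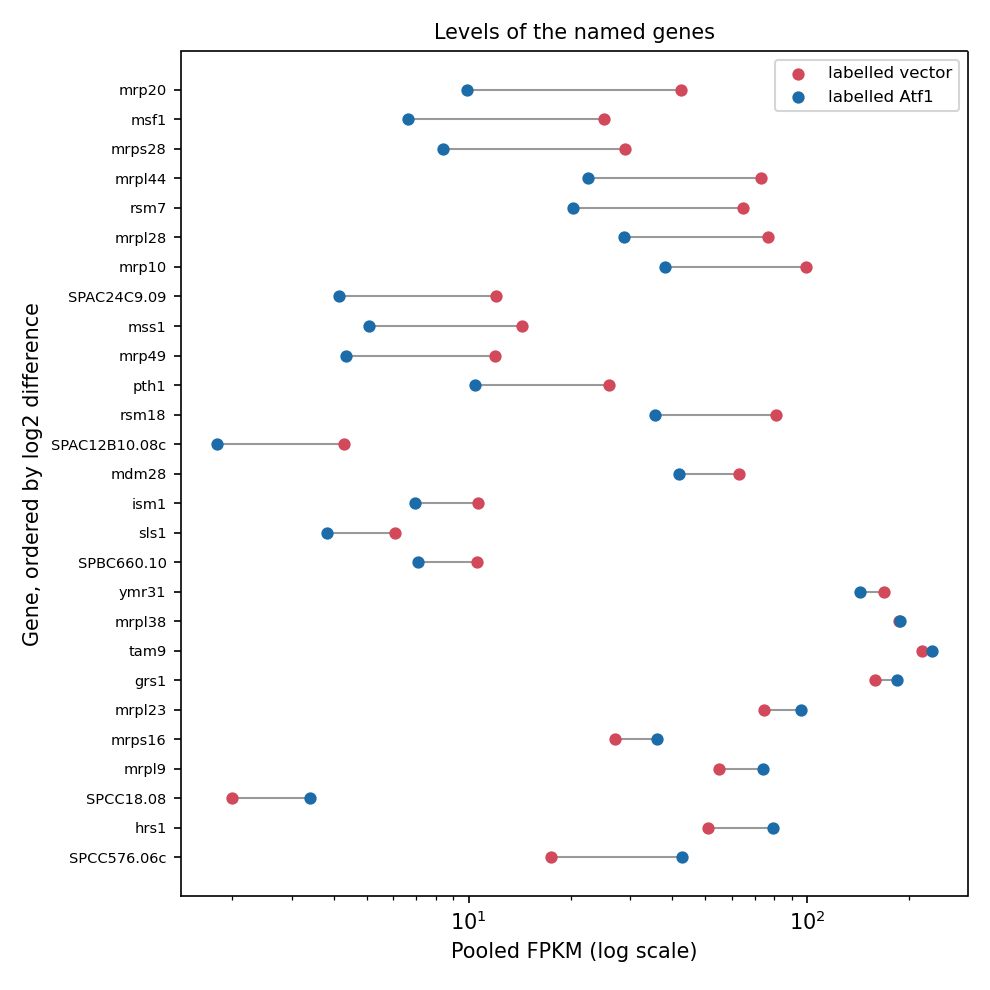
Pooled FPKM (x axis, log scale) of 27 members chosen for naming, in the libraries labelled vector (red) and Atf1 (blue), ordered by log2 difference with the lowest on top. The grey line joins both values of a gene. From mrp20 down to ymr31 the Atf1-labelled value is the lower one.

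The remaining 11 members had differences below 0. The 4 genes of release and peptidyl-tRNA handling had a median of -0.68. Among them, pth1, a peptidyl-tRNA hydrolase gene that frees tRNAs from stalled chains, was at 10.4 and 26.1 FPKM in a locus of 7 genes. The gene SPBC660.10, for the elongation-factor-G-type protein that releases ribosomes after termination, was at 7.09 and 10.6 FPKM and is alone in its locus.

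The 5 genes of tRNA modification and ribosome assembly had a median of -0.90. The gene mss1 was at 5.08 and 14.4 FPKM (p = 0.0497, q = 0.668 in the authors' deposited table). In budding yeast its counterpart acts with Mto1 on the wobble uridine of mitochondrial tRNAs, and the MTO1 homologue SPBC30B4.06c was at 13.0 and 16.6 FPKM. The gene SPAC12B10.08c, annotated as a lysidine synthase for the isoleucine tRNA, was at 1.81 and 4.29 FPKM. The GTPase genes mtg1 and mtg2 had differences of -0.90 and -0.21. Only mtg2 of these 5 is alone in its locus. The genes mtg1, SPAC12B10.08c, SPBC30B4.06c and mss1 lie in loci of 8, 5, 4 and 2 genes. The genes mdm28, for a LETM1-type protein of the inner membrane whose budding yeast relative binds mitochondrial ribosomes, and sls1, which in budding yeast links transcription and translation in mitochondria, are both alone in their loci. They were at 41.7 and 63.0 FPKM, and at 3.83 and 6.05 FPKM.

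The difference of a gene was related to its level, among the members and among other nuclear protein genes alike. Spearman's rho between difference and mean FPKM was 0.33 across 102 members and 0.36 across 4869 other nuclear protein genes. Both axes come from the same pooled values, and genes are not independent replicates. The comparison was therefore repeated within ranges of mean FPKM, a step chosen after seeing the data. Below 10 FPKM the medians were close, at -0.56 over 16 members and -0.52 over other genes. From 10 to 20 FPKM they were -0.78 and -0.45. In that range 0 of 22 members lay above 0, and the upper quartile of 1075 other genes was 0.06. From 20 to 50 FPKM the medians were -0.52 and -0.24. At 50 FPKM and over they had opposite signs, -0.26 over 29 members and 0.32 over 1421 other genes. The median of the other genes in this highest range was -0.19 with quantile normalization and -0.34 with equal FPKM totals, so its sign depends on the scaling.

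**Figure D4:**
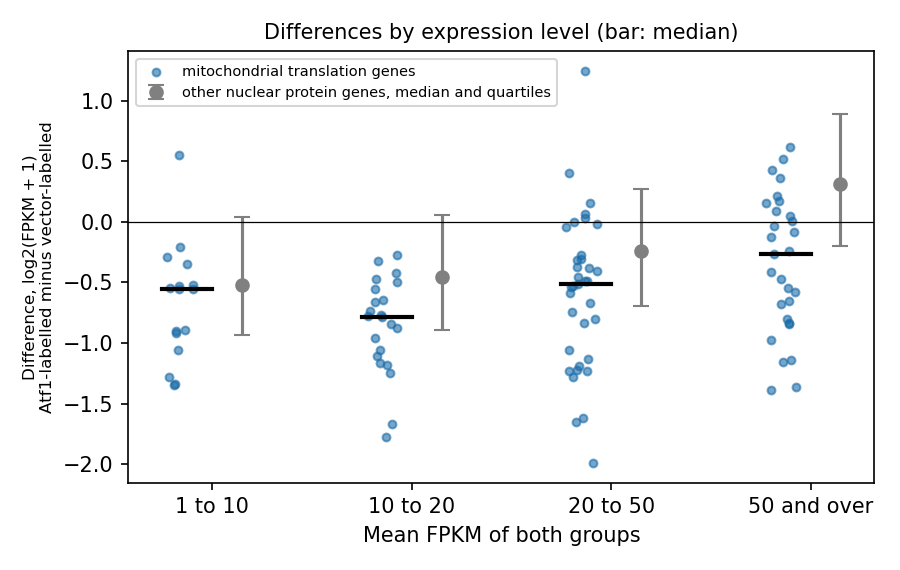
Difference on the log2(FPKM + 1) scale (y axis), Atf1-labelled minus vector-labelled, by mean FPKM of both groups (x axis). Blue points are members with their median as a black bar, and grey points with error bars are the median and quartiles of other nuclear protein genes. In the highest range the medians are -0.26 and 0.32.

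The members were also set beside other genes of like protein length. Medians over members ran from -0.53 under 150 residues through -0.72 and -0.74 to -0.41 at 500 residues and over. Those of other nuclear protein genes in the same ranges were -0.09, -0.18, -0.12 and -0.30. The member median was the lower one in each range, by between 0.11 and 0.62.

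Of the 102 members, 21 are alone in their Cuffdiff locus and 81 share it with up to 7 other genes, whose reads may have been divided between them. Over the 21 the median difference was -0.52, against -0.09 over 1732 nuclear protein genes alone in their locus, and 18 lay below 0. They hold 4 of the 9 genes with an unadjusted p under 0.05, which is 19.0% of them, against 9.64% lower among nuclear protein genes alone in their locus. Only mrpl20, at 4.17 and 5.33 FPKM, shares its locus with a called gene, SPCC1393.12 (303 and 20.1 FPKM). In the RefSeq annotation of the later assembly ASM294v3, 64 members overlap another protein-coding gene, 56 of them one on the other strand. The library kit keeps the strand, per the labels' protocols, but no source used here says whether counting used it.

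Beside other gene sets of the same table, the members lay on the same side as the genes for rRNA processing. Those had a median difference of -0.84 over 111 genes, with 94 below 0 and 0 called. At an unadjusted Cuffdiff p under 0.05, 17 of them (15.3%) were lower, against 4.04% over all tested genes. Genes with the term cytoplasmic translation had a median of 0.29 over 159 genes that are not members, with 51 below 0. The nuclear genes of the respiratory chain and ATP synthase had a median of 0.40 over 38 genes, with 12 below 0. Only some of them encode proteins that assemble with the products of mitochondrial translation, and the set also holds sdh4. Neither the cytoplasmic translation set nor the respiratory set had a called gene. With median-of-ratios scaling their medians were 0.41 and 0.53. Both turned negative with quantile normalization (-0.34 and -0.52) and with equal FPKM totals (-0.37 and -0.26). The member median was -0.44, -0.54 and -1.17 in these 3 scalings, in that order. It was thus close to that of the respiratory set with quantile normalization. The medians of the members and of rRNA processing stayed below 0 in each of the 3 scalings. The sets differ in level: their median mean FPKM was 30.4 for the members, 20.9 for rRNA processing, 2144 for cytoplasmic translation and 347 for the respiratory chain. The differences between sets were not tested, and the part of level in them was not tested either.

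**Figure D5:**
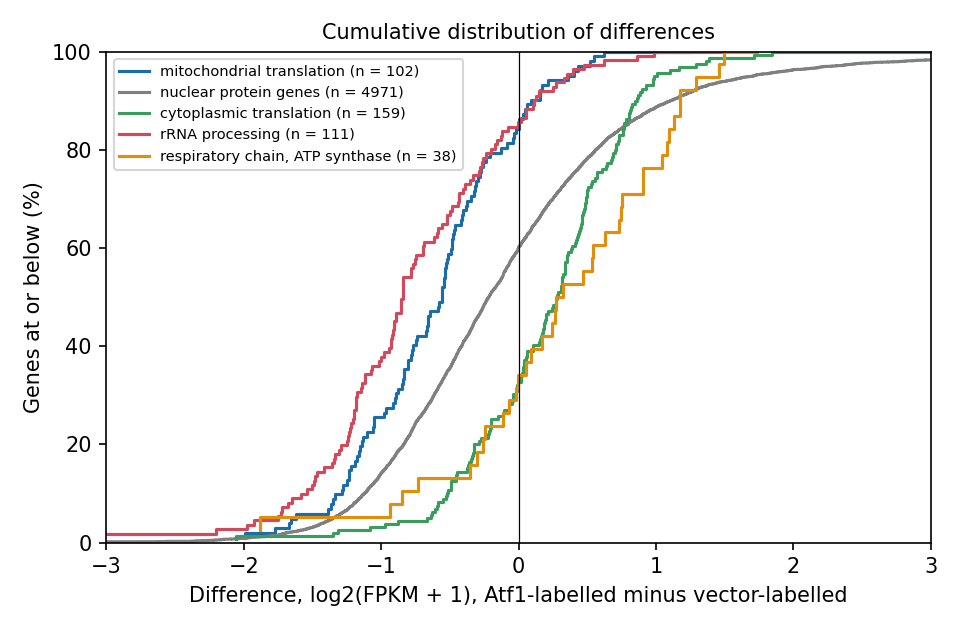
Share of genes (y axis, %) at or below a given difference on the log2(FPKM + 1) scale (x axis), Atf1-labelled minus vector-labelled, for the members, 3 other gene sets without the members, and all tested nuclear protein genes. The curve of the members lies left of that of nuclear protein genes over most of its course, with 83.3% of members against 60.1% below 0.

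Further translation factors carry only the more specific terms of initiation, elongation or termination and are therefore not members. Of these 11 genes, 9 had a difference below 0, with a median of -0.72 and none called. The initiation factor gene mti3, alone in its locus, was at 9.36 FPKM under the Atf1 label and 28.4 FPKM under vector (p = 0.00995, q = 0.313 in the authors' deposited table). The elongation factor gene tuf1, whose product brings loaded tRNAs to the ribosome, was at 347 and 163 FPKM (p = 0.0873 in the authors' deposited table). The partner gene tsf1 was at 17.3 and 24.8 FPKM. The recycling factor gene rrf1 and the release factor gene mrf1 were at 10.8 and 19.3 FPKM, and at 2.96 and 7.28 FPKM. Besides tuf1, only fmt1, for the formyltransferase that marks the initiator tRNA, lay above 0. The genes tuf1 and fmt1 lie in loci of 3 and 5 genes, tsf1 in a locus of 5, and rrf1 and mrf1 in loci of 2.

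Among 18 tested genes for mitochondrial DNA and RNA, 15 lay below 0, with a median of -0.35 and none called. The smallest p-values were those of par1 (17.5 and 44.5 FPKM) and of the pentatricopeptide repeat gene ppr3 (3.84 and 9.38 FPKM). The symbol par1 belongs here to a gene annotated as a phosphatase subunit, and without it the median of 17 genes was -0.33. The RNA polymerase gene rpo41 was at 6.68 and 8.67 FPKM. Among 31 tested genes listed for protein import, 14 lay below 0, with none called and a median of 0.02, which was -0.53 with quantile normalization and -0.64 with equal totals. The smallest p-values were those of sdh4 (677 and 203 FPKM), matched through its alias tim18, and of the outer membrane assembly gene sam50 (137 and 58.9 FPKM). The gene sdh4 is also counted in the set of the respiratory chain and ATP synthase, and the import median without it was not computed. Among 10 genes of membrane insertion and quality control, 8 lay below 0, with a median of -0.44. The protease gene lon1 (19.0 and 37.3 FPKM) and the insertase gene oxa102 (8.34 and 13.4 FPKM) had the smallest p-values. In that list the symbols pim1 and clp1 also belong to genes with another annotated function, and without them the median of 8 genes was -0.37.

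Several RNAs of the mitochondrial chromosome, whose messages the members translate, had higher values under the Atf1 label. Of 8 listed genes for proteins of the respiratory chain, the ATP synthase and the ribosome there, 6 were tested, and 5 of these had a higher level under the Atf1 label, with a median difference of 1.88 that stayed above 0 in each of the 3 scalings. The tested gene that was lower, atp6, was at 1.92 and 3.92 FPKM. Under vector all 6 were low, from 1.15 FPKM for cob1 to 6.90 FPKM for atp9. The ribosomal protein gene var1, below the limit, was at 0.0760 FPKM under the Atf1 label and 1.72 FPKM under vector. Outside that list, the reading frame SPMIT.06 in an intron of cob1 was at 73.0 and 16.7 FPKM (p = 0.00155, q = 0.103 in the authors' deposited table). The subunit genes cox1 and atp9 were at 34.2 and 5.39 FPKM, and at 79.3 and 6.90 FPKM, without a call. The Cuffdiff loci of SPMIT.06 and cob1 hold 2 genes each and that of cox1 holds 3, so reads may have been divided there. The gene atp9 is alone in its locus. The 15S rRNA of the small mitochondrial subunit was at 825 FPKM under the Atf1 label and 79.5 FPKM under vector (q = 0.00809 in the authors' deposited table). The 21S rRNA of the large subunit was at 147 and 78.0 FPKM. The libraries were made with a kit for mRNA, per the labels' protocols.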

How the data were processed

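Per the submitters' processing notes, the authors used HISAT2 and Cuffdiff, with no version given, on the ASM294v2 build. The authors' deposited values are FPKM, per the file headers, 1 pooled value per group and gene, identical in both tables for all 7092 genes. The authors' deposited p-values and q-values are those of Cuffdiff. Scaling between groups, the modelling of spread and the depth of the libraries are not given in the sources used here, so no interval is printed, and FPKM totals were 1321551 (Atf1) and 835070 (vector).

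No test was computed, since values per library are not used here. Differences used a pseudocount of 1. Of 6452 genes with status OK, 6219 with a mean of at least 1 FPKM formed the background. Roles came from the deposited annotation. The members, lists and alternatives were chosen with earlier results of these data known. Named were the 8 members with the highest and 8 with the lowest difference, the 5 of highest mean, and the 2 with the smallest p per role or list, 28 members in all, of which 1 is counted but not reported here by name. Others are said to be chosen after their values were seen, or illustrate a role. The listed names (24, 35 and 12) gave 19, 31 and 10 genes, aliases included. A copy was called near-identical at 95% identity over 50% of a gene of ASM294v3 (BLAST+ 2.17.0). The summaries were tested on simulated data. Tools were pandas 2.3.3, numpy 2.4.6 and matplotlib 3.10.9 under Python 3.11.15.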

Additional observations from a re-analysis of the deposited data

How the results depend on the processing

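No paired analysis was possible because each group comes as 1 merged value, and for the same reason limma, leaving out replicates and a replicate block were not run. The median difference of the members (-0.56) stayed below 0 under each alternative run, and so did that of each role with at least 4 members. The median was -0.44 with median-of-ratios scaling, -1.17 with equal FPKM totals and -0.45 at a pseudocount of 5. The 2 scalings moved the median of all tested genes from -0.11 to 0.001 and -0.73. Relative to the median of nuclear protein genes, the member median (-0.34) ran from -0.44 to -0.27. Members above 0 (17) were 10 with quantile normalization, 2 with equal totals, 3 among those alone in their locus and 6 without ribosomal subunits, where fewer members remain in the last 2 cases. Of 25 members with at least 2-fold lower values, 16 were counted at a pseudocount of 5 and 21 with median-of-ratios scaling. The count was 70 with equal totals, 4 among those alone in their locus and 5 without ribosomal subunits. Members at least 2-fold higher (1) were 0 with equal totals or alone in their locus, and 2 with every term beginning with mitochondrial translation. The count called stayed at 0 in each direction at q under 0.01 and with Benjamini-Hochberg adjustment over the tested genes, and 9 were lower at an unadjusted p under 0.05. Of the 28 named members, 4 changed sign with quantile normalization and 8 with equal totals. Apart from fewer members or another threshold, the cause was not tested. The depth is unknown, which limits statements on members at a few FPKM. Variation between the 2 libraries of a group is unknown too.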

Other observations

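Some members stand close together on a chromosome, and their differences were near-equal for some of them and apart for others. On chromosome I, mrp10, mrp4 and SPAC24C9.09 carry neighbouring systematic names and had differences of -1.36, -0.66 and -1.35, where the last 2 share a locus. The genes mrpl40, mrpl28 and mrps12 (SPAC4F8.02c, SPAC4F8.05c and SPAC4F8.06) had differences of -0.52, -1.39 and -0.04. Genes whose proteins carry the same number in the annotation were close in some cases and apart in others. A shared number does not show that the proteins are related or are counterparts, which was not checked. The genes annotated as L27, mrp7 and SPAC3A12.19, had differences of -0.49 and -0.66. Those annotated as L9 were SPCC777.17c, at -0.67, and mrpl9, at 0.43, and those annotated as L23 were mrp20, at -1.99, and mrpl23, at 0.36. Both mrpl9 and mrpl23 turned below 0 with equal FPKM totals. The genes annotated as S26A and S26B, SPBC16A3.14 and SPBC3H7.04, had differences of 0.06 and -0.80, and both share a locus with other genes. They were picked with their values in view, and no test was made.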
